A study of Mus musculus with 60 samples.

Results

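Chromosome 8 of the mouse is described here by the RNA of its 583 well-measured genes, of 50559 genes in the count table. The members are the chromosome 8 genes with a mean of at least 5 CPM (the count scaled to a common library total) over all libraries, without 15 genes left out by symbol (among them subunits of the respiratory chain and ribosomal proteins). The table lists 2459 genes on chromosome 8, and the other 1861 lay under the threshold. Earlier results of these data had shown that chromosome 8 stands higher in the line V19, so the difference of V19 from the other lines chose the subject and is given as a description, with no test. DNA copy number was not measured, and dosage means here the RNA level.

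The study sequenced poly(A) RNA of embryonic stem cells, 60 libraries that the labels place in 20 groups of 3 biological replicates. The lines were the wild-type lines 1A and V19, which were derived independently, and 2 Cas9-edited derivatives of 1A, a knockout of Ezh2 and a knockout of Eed. Ezh2 and Eed are subunits of Polycomb repressive complex 2 (PRC2), which methylates histone H3 at lysine 27. Each line was taken from serum medium with LIF on gelatin (0 h, untreated) and after 12, 24, 48 and 96 h with 2i, which is 1 µM PD0325901 against MEK together with 3 µM CHIR99021 against GSK3. Every genotype is 1 line, so a difference between genotypes or wild types cannot be told apart from a difference between lines. No group shares V19's background with a knockout.

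A chromosome carries genes of unrelated function and control. Gain of chromosome 8 is a well-known karyotype change of mouse embryonic stem cells in culture, and a cell with an extra copy of a chromosome usually makes more RNA from most of its genes. The members include genes of DNA replication, splicing, translation, membrane traffic and pluripotency, and their promoters carry different elements. The promoters of 3 members that stood above every 1A library at every time are shown to let that variety be seen: Mcm5, a subunit of the replicative helicase, Zfp42 (Rex1), a marker of naive pluripotent cells, and Aars, the alanyl-tRNA synthetase. Each sequence is the 250 bases before the gene's start, from RefSeq (GRCm38.p6), read along the gene's strand, with the searched motif in capitals.
Mcm5: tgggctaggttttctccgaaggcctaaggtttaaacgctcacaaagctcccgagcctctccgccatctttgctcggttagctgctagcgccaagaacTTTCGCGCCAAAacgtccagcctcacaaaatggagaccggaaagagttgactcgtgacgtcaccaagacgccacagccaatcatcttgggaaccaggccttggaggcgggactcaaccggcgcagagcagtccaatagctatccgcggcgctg
Zfp42: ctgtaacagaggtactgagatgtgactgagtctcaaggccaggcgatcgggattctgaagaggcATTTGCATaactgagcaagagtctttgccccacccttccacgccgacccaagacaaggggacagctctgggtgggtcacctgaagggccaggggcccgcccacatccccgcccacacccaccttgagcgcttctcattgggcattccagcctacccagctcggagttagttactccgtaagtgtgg
Aars: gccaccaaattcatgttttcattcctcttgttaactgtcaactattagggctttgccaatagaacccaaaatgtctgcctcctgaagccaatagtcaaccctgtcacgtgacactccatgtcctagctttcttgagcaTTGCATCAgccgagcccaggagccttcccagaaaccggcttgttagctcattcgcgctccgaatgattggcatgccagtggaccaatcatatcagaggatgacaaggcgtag
They lie at chr8:75109259-75109508, chr8:43307010-43307259 and chr8:111033592-111033841, on the plus, minus and plus strands. In the Mcm5 promoter the capitals mark 2 overlapping matches to the E2F motifs TTTCGCGC and TTTGGCGC, the second on the opposite strand. In the Zfp42 promoter they mark the octamer ATTTGCAT, which POU factors such as Oct4 bind, and in the Aars promoter a match on the opposite strand to TGATGNAA, the core of Atf4 elements. Aars holds a further match 9 bases past its start, outside the stretch shown. Searched on both strands over the 300 bases from 250 before to 50 past the start, the E2F motifs were in 0.833% of all 27025 promoters of the table, the octamer in 1.75% and the Atf4 core in 4.06%. The table held 407 of the 583 members, so no share over the members is given, and a match is a description of letters and not a site in use.

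Library totals were 2561169 to 11065948 counts, with a median of 6055990. The targeted genes were low in the lines labelled as knockouts, Ezh2 at 14.2 to 20.2 CPM in the Ezh2 knockout against 191 to 258 in 1A wild type, and Eed at 16.0 to 30.0 CPM in the Eed knockout against 252 to 375. Pou5f1, a defining gene of pluripotent cells, was at 646 CPM or more in every library. The sum of 7 embryonic stem cell markers, Pou5f1 among them, was 5207 to 7915 CPM outside the Eed knockout. In the Eed knockout this sum was 2981 to 5478 CPM. Summed over 12 fibroblast and feeder markers, the level was 12.1 to 33.6 CPM outside the Eed knockout and 86.6 to 148 CPM in it. Summed over 8 primitive endoderm markers, it was 338 to 803 CPM outside the Eed knockout and 1161 to 3219 CPM in it. In bulk RNA, fewer cells of a type and less RNA per cell cannot be told apart. Replicate 2 of V19 at 48 h stood apart from the other V19 libraries: its log2 levels off chromosome 8 differed from the 1A libraries with an SD of 0.82, against 0.50 to 0.60 in the other 14. Where leaving it out ended a call or moved a count by more than 1.5 times, the value without it is given.

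The members were higher in V19 than in the 3 1A lines at every time, by about the same factor. At 0 h the median of the 583 fitted log2 differences (V19 minus the mean of the 3 1A lines) was 0.43, and at 12, 24, 48 and 96 h it was 0.44, 0.42, 0.41 and 0.39. The medians of the 14271 tested genes off chromosome 8 were -0.02, -0.02, -0.03, -0.02 and -0.03. The members' median thus exceeded that of the other genes by 0.45, 0.46, 0.45, 0.44 and 0.42, or 1.37, 1.38, 1.37, 1.36 and 1.34-fold. For scale, a ratio of 3 to 2 is 0.58 on the log2 scale. Against 1A wild type alone the same measure was 0.43, 0.41, 0.39, 0.36 and 0.36. From log2 of the authors' values after removal of unwanted variation it was 0.33, 0.34, 0.33, 0.31 and 0.30, and as a ratio of summed CPM at 12 and 48 h it was 0.48 and 0.46.

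The pattern could be read in each library on its own. The measure used for a library is the members' median log2 difference from the 1A libraries of the same time (a 1A library left out of its own mean), minus the same median off chromosome 8. In the 15 V19 libraries it was lowest at 0.40, with a median of 0.45 and a highest value of 0.49. In the 45 1A libraries it ran from -0.11 to 0.12 with a median of 0.00, so no 1A library came near any V19 library. In V19 the group means were 0.45 ± 0.0018, 0.45 ± 0.0041, 0.44 ± 0.011, 0.45 ± 0.038 and 0.42 ± 0.012 at 0, 12, 24, 48 and 96 h (SD, n = 3). Replicate 2 at 48 h had the highest value, 0.49, and the other 2 had 0.45 and 0.41. Among the 1A lines, the Eed knockout was lowest (group means -0.09 to -0.06) and 1A wild type highest (0.03 to 0.09), with the Ezh2 knockout between (0.00 to 0.03), although at 0 h its mean of 0.03 was also that of 1A wild type. Members took 5.09 to 5.71% of the counts of a V19 library and 4.06 to 4.43% of those of a 1A library.

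**Figure D1:**
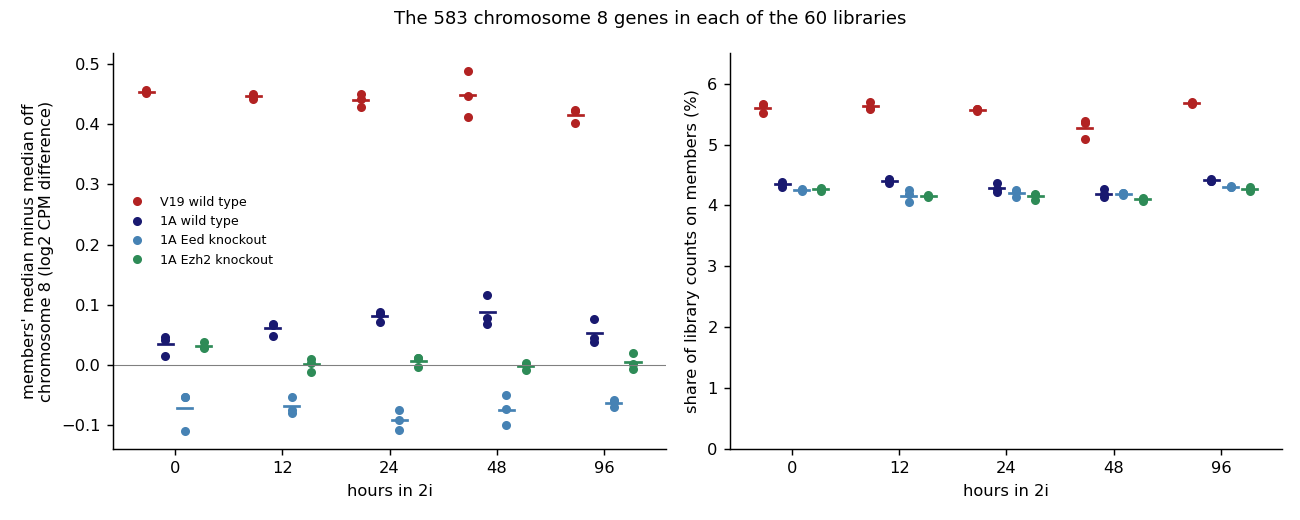
Left, for each library (point) by line and hours in 2i, the members' median log2 CPM difference from the 1A libraries minus the median off chromosome 8; right, the share of counts on the 583 members in percent; short lines are group means of 3. The 15 V19 libraries lie between 0.40 and 0.49 on the left and at 5.09 to 5.71% on the right, apart from the 45 1A libraries.

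Calls and ranges of single members are given as a description. Of the 583, 409, 407, 396, 370 and 392 were called higher in V19 at an adjusted p under 0.05 at the 5 times, where 14.0, 16.7, 15.8, 19.7 and 15.1% of all 15083 tested genes were called higher, members included. Called lower were 19, 21, 30, 35 and 30 members, against a background of 15.0, 16.4, 16.4, 18.3 and 15.6%. Against 1A wild type alone 336, 334, 317, 277 and 267 members were called higher (background 5.01, 6.16, 7.41, 4.76 and 4.16%) and 7, 5, 10, 5 and 2 lower (background 5.54, 5.12, 6.38, 3.62 and 3.30%). These calls come from edgeR's quasi-likelihood test in the contrasts that led to the choice of the members, and nothing is read from them. All 3 V19 libraries lay above all 9 1A libraries of the same time for 310, 273, 256, 170 and 293 members, against 5.22, 4.46, 4.08, 2.79 and 5.37% of all tested genes. All 3 lay below all 9 for 0, 1, 0, 4 and 2 members, against 4.36, 3.47, 2.84, 2.51 and 4.87%. For 95 members (16.3%) this held at every time, where it held for 0.696% of all tested genes, and no member was below at every time (0.239% of all tested genes). The genes above were 105 genes, 97 of them on chromosome 8 and 8 elsewhere.

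The differences of the members were shifted as a body but not identical. Averaged over the 5 times, the median difference was 0.42 (1.34-fold), the quartiles were 0.23 and 0.56, and the members ran from -1.52 to 1.60. The interquartile range was 0.33, beside 0.33 for the 10205 genes of at least 5 CPM elsewhere, whose median was 0.00. Differences between 0.2 and 0.6 were held by 339 members (58.1%) and by 16.4% of the other tested genes. At or above 0.6 were 117 members (20.1%), at 0 to 0.2 were 60 (10.3%) and below 0 were 67 (11.5%). Of the other tested genes these bands held 2.82, 28.1 and 52.7%. At every time above 0 were 432 members (74.1%, against 16.9% of the other tested genes), and 29 were below 0 at every time (4.97%, against 23.0%).

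**Figure D2:**
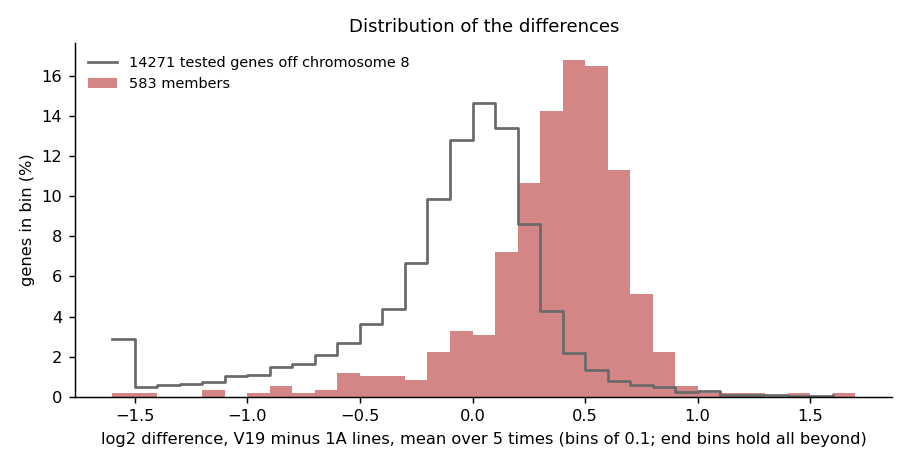
Share of genes (percent, y axis) in bins of 0.1 of the log2 difference of V19 from the 1A lines averaged over 5 times (x axis), for the 583 members (bars) and the 14271 tested genes off chromosome 8 (line); the end bins hold all values beyond. The members' distribution is centred at a median of 0.42 and that of the other genes at -0.02.

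Over the genes of at least 5 CPM on each of the 19 other chromosomes (the autosomes and X), the median difference lay between -0.09 and 0.08 at each of the 5 times. Averaged over times, chromosome 6 was lowest (-0.06) and chromosome 11 highest (0.06). On Y, 5 genes had a median of -2.78 averaged over times, with Ddx3y, an RNA helicase, at 4.54 to 15.4 CPM in V19 and 37.3 to 108 CPM in the 1A lines. Along chromosome 8, cut into 13 windows of 10 Mb (GRCm39) with 10 to 97 members each, every window had a positive median. The lowest was 0.31 in the window from 30 to 40 Mb, where 23 members spread widely (quartiles -0.03 and 0.51), and the highest 0.49 from 60 to 70 Mb, with 18 members. The 233 windows of at least 10 genes on other chromosomes had medians of -0.29 to 0.29, so none reached the lowest of chromosome 8. The highest of them, 0.29, was from 10 to 20 Mb on chromosome 11, with 12 genes.

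**Figure D3:**
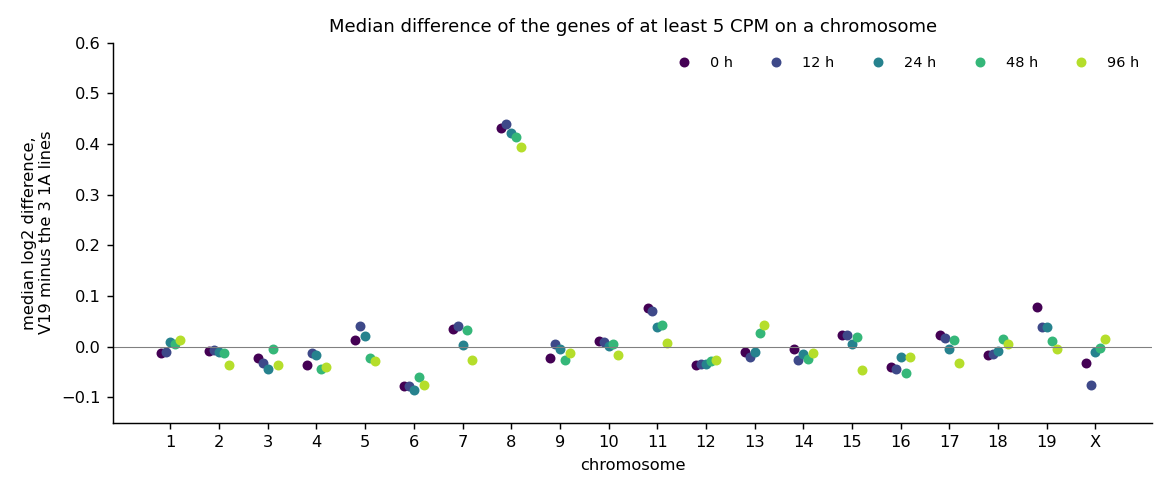
Median log2 difference of V19 from the 3 1A lines (y axis) for the genes of at least 5 CPM on each chromosome (x axis), 1 point for each of 5 times; for chromosome 8 the genes are the 583 members, and Y is left out. Chromosome 8 lies at 0.39 to 0.44 and the others between -0.09 and 0.08.

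**Figure D4:**
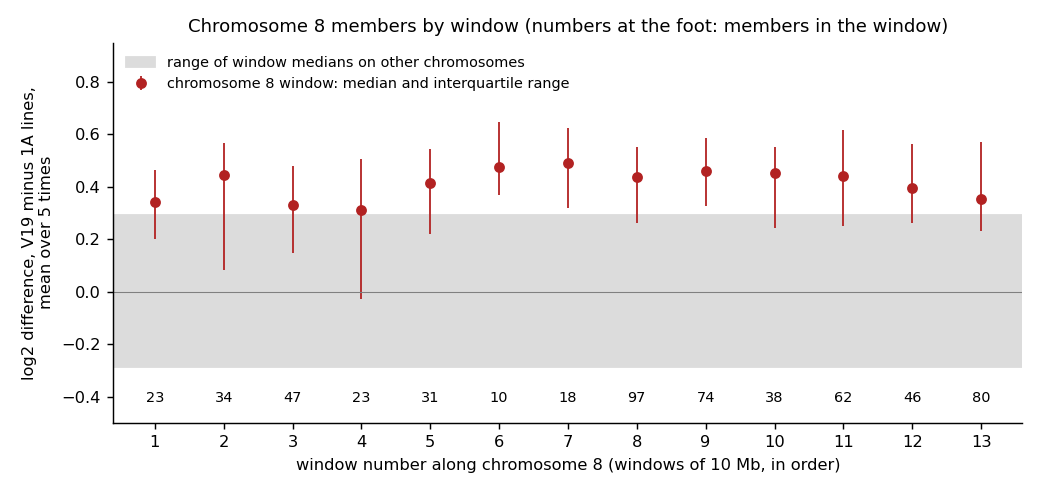
Median (point) and quartiles (bar) of the members' log2 difference of V19 from the 1A lines, averaged over 5 times, in 13 windows of 10 Mb in order along chromosome 8; the band is the range of window medians on other chromosomes. All 13 medians, 0.31 to 0.49, lie above the band, which ends at 0.29.

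By strand, length and level the medians of the members were all above those of other genes where these were compared. Members on the plus strand had a median of 0.40 (302 genes) and those on the minus strand 0.44 (281). In 4 classes of equal size by exon length, from shortest to longest, the medians were 0.43, 0.45, 0.44 and 0.35, and those of other genes in the same ranges 0.06, 0.01, -0.01 and -0.03. In 4 classes by mean CPM, from lowest to highest, they were 0.30, 0.39, 0.45 and 0.51, and the interquartile range narrowed from 0.54 to 0.27. Other genes of the same 4 CPM ranges had medians of -0.10, -0.03, 0.02 and 0.09, in the same order. At the threshold, the members just inside were Rbl2 (5.13 CPM, difference 0.42), Plat (5.16 CPM, -1.17) and 4930513N10Rik (5.16 CPM, 0.53), and just outside were Rab3a (4.89 CPM, 0.48), Chst5 (4.89 CPM, -0.98) and LOC108167518 (4.73 CPM, 0.29). The 15 genes left out by symbol had a median of 0.46, with 13 above 0, from -1.21 for Col4a2, a basement membrane collagen, to 0.86 for Ier2, an immediate early gene. The 214 chromosome 8 genes under 5 CPM that were tested had a median of 0.27, with 143 above 0.

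Grouped by what they do, the members of 7 of 9 lists had a median difference between 0.37 and 0.61, and those of the other two had 0.13 and 0.00. The lists were not tested against each other. The 1A lines include the Eed knockout, and no list median against 1A wild type alone is given. In the following, a median is over a list's members of the log2 difference of V19 from the 1A lines averaged over the 5 times, beside 0.42 for all 583. Replication and cell cycle genes (32 members) had a median of 0.49 and all 32 were above 0, from Wrn (0.05) to Rnaseh2a (0.79), a subunit of the nuclease that removes RNA from DNA. Mcm5 (chromosome 8, 75836096 to 75855067, GRCm39) was at 972, 904 and 962 CPM in the 3 V19 libraries at 0 h, and at 670, 699 and 740 CPM in 1A wild type, 574, 554 and 525 CPM in the Eed knockout and 733, 717 and 730 CPM in the Ezh2 knockout. The 15 V19 libraries were between 819 and 1133 CPM and lay above every 1A library of the same time at each time. Its fitted difference was 0.53 ± 0.05 at 0 h and 0.79 ± 0.05 at 12 h (SE). Cdt1, which licenses replication origins, had 215, 275 and 312 CPM (lowest, median, highest) over the V19 libraries and 182, 230 and 264 CPM over 1A wild type. It ran from 153 to 238 CPM in the Ezh2 knockout and from 108 to 182 CPM in the Eed knockout. Its time-averaged difference from the 3 1A lines was 0.60. Tfdp1, the dimerisation partner of E2F factors, averaged 0.54.

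Of the RNA processing, translation and ribosome assembly genes, 29 of 30 were above 0 and the median was 0.61, the highest of the 9 lists. The exception was Esrp2, an epithelial splicing regulator, at -0.52. Aars (111759781 to 111784237) was at 1163, 1055 and 1143 CPM in V19 at 0 h, and at 696, 742 and 728 CPM in 1A wild type, 541, 525 and 509 CPM in the Eed knockout and 808, 836 and 844 CPM in the Ezh2 knockout. No V19 library overlapped with a 1A library of its time, and the Eed knockout was the lowest line throughout. The difference was 0.72 ± 0.06 at 0 h, 1.17 ± 0.06 at 24 h and 0.81 ± 0.06 at 96 h (SE), above the members' median at each time. Sf3b3, a core splicing factor, averaged 0.60. All 31 chromatin and transcription members were above 0 (median 0.45), from Sin3b, a corepressor scaffold, at 0.01 to Nacc1 at 0.82. Ash2l, a subunit of the H3K4 methyltransferase complexes, averaged 0.52, Hmgb2, an abundant chromatin protein, 0.61, and Cnot1, the scaffold of the CCR4-NOT deadenylase, 0.55.

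The 20 members of the pluripotency, germ line and signalling list had a median of 0.47, with 16 above 0. Zfp42 (43748104 to 43760046) had 483, 487 and 474 CPM in V19 at 0 h. It had 319, 298 and 295 CPM in 1A wild type, 255, 236 and 255 CPM in the Eed knockout, and 389, 386 and 376 CPM in the Ezh2 knockout. The V19 libraries were above all the others of the same time at each of the 5 times, and its difference was 0.65 to 0.74. Sox1 (12445519 to 12449555), a neural transcription factor that is low in these cells, had the largest difference of all members, 1.60. Its level was 28.6, 27.8 and 28.5 CPM in V19 at 0 h and 9.01, 8.80 and 5.84 CPM in 1A wild type. Sfrp1, a secreted Wnt antagonist, averaged 0.56, but only 0.08 ± 0.08 at 0 h against 0.78 ± 0.06 at 96 h (SE). At 0 h Sfrp1 was at 45.6, 44.0 and 47.8 CPM in V19, above 1A wild type at 28.1, 23.2 and 25.4 CPM. Both knockouts were then above V19, Ezh2 at 52.5, 58.4 and 53.2 CPM and Eed at 57.3, 52.3 and 64.0 CPM. Irs2, an adaptor of the insulin receptor, was lowest in the list at -0.46.

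Membrane traffic, lysosome and autophagy genes (27 members) had a median of 0.37, with 26 above 0. Among them Atp6v1b2, a subunit of the proton pump of lysosomes, averaged 0.47, Vps35, of the retromer, 0.42, and Lamp1, a lysosomal membrane protein, 0.23. Mitochondrial, redox and metabolic genes (28 members) had a median of 0.42, with 27 above 0. Gpt2, a mitochondrial alanine transaminase, was second of all members at 1.48. It had 88.0, 278 and 310 CPM as lowest, median and highest over the V19 libraries and 74.5, 168 and 210 CPM over those of 1A wild type. The Ezh2 knockout ran from 51.3 to 138 CPM and the Eed knockout, also part of the 1A mean, from 24.7 to 66.2 CPM. The metallothioneins Mt2 and Mt1, which bind zinc and lie side by side, averaged 0.36 and 0.09, and Mt1 was at -0.16 and -0.21 at 12 and 24 h (SE 0.14 each). The ADP/ATP carrier Slc25a4 averaged 0.36. Protein folding, ubiquitin and proteasome genes (24 members) were all above 0, with a median of 0.43. Of these, the cochaperone Dnaja2 was at 0.46 to 0.54 at all times, and the proteasome subunit Psmd7 averaged 0.60. Calr, the endoplasmic reticulum chaperone and the most abundant member at a mean of 1070 CPM, averaged 0.26.

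The lists furthest from the shift were adhesion, cytoskeleton and matrix (23 members, median 0.13, 15 above 0) and apoptosis and innate sensing (5 members, median 0.00, 3 above 0). In the Eed knockout at 0 h, 10 adhesion members were called higher and 4 lower than in 1A wild type (background 26.4 and 23.3%). Of the apoptosis members 1 was higher and 1 lower. The part of this knockout in the low medians was not tested. Itgb1, the integrin beta 1 chain, differed by 0.04 on average. Its lowest, median and highest values were 216, 257 and 301 CPM in V19, 174, 195 and 261 CPM in 1A wild type, 293, 361 and 411 CPM in the Eed knockout and 198, 224 and 251 CPM in the Ezh2 knockout. The V19 median was thus above those of 1A wild type and the Ezh2 knockout and below that of the Eed knockout. Fat1, a large protocadherin, averaged 0.13, and Colgalt1, a collagen galactosyltransferase, 0.26. Ifi30, a lysosomal thiol reductase, averaged 0.00. Bst2, the antiviral protein tetherin, went from 0.25 ± 0.11 at 0 h to -1.06 ± 0.14 at 96 h (SE). At 96 h it was at 22.7, 26.8 and 18.8 CPM in V19 and 20.3, 19.4 and 19.4 CPM in 1A wild type. The Ezh2 knockout was then at 38.3, 31.4 and 32.7 CPM and the Eed knockout at 142, 163 and 169 CPM.

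The members with the lowest differences were Acta1 (skeletal muscle actin, -1.52), Slc5a5 (the sodium iodide symporter, -1.43), Plat (tissue plasminogen activator, -1.17), B3gnt3 (-1.14) and Marveld3 (-0.98), and after Sox1 and Gpt2 the highest were Zmat4 (1.30), Xkr5 (1.17) and Gdf15, a stress-induced hormone (1.07). All 10 were chosen by this value. For all 5 of the lowest, the Eed knockout was the highest line by its median. For Sox1, Gpt2 and Xkr5 all Eed knockout libraries lay below those of the other lines at each time. For Zmat4 they did so except at 48 h, and for Gdf15 except at 0 and 96 h. Plat ranged from 6.54 to 20.4 CPM in the Eed knockout, while V19 libraries had at most 2.95 CPM, those of the Ezh2 knockout at most 3.47 CPM and those of 1A wild type at most 2.50 CPM. Slc5a5, B3gnt3 and Marveld3 also had their highest median in the Eed knockout, at 47.3, 23.7 and 15.6 CPM against 5.32, 2.84 and 2.67 CPM in V19. For B3gnt3 V19 was above 1A wild type at 0 h, at 3.08, 6.14 and 4.25 against 1.63, 2.45 and 2.79 CPM. For Slc5a5 V19 was below it at 0 h, at 14.9, 12.5 and 11.5 against 20.1, 22.7 and 23.6 CPM. For Marveld3 these lines overlapped at 0 h, at 2.76, 2.86 and 2.55 against 2.66, 4.40 and 2.79 CPM. The mean of the 1A lines includes the Eed knockout. Acta1 had medians of 2.34 CPM in V19 and 1.79 CPM in the Ezh2 knockout but 10.3 CPM in 1A wild type and 14.4 CPM in the Eed knockout.

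**Figure D5:**
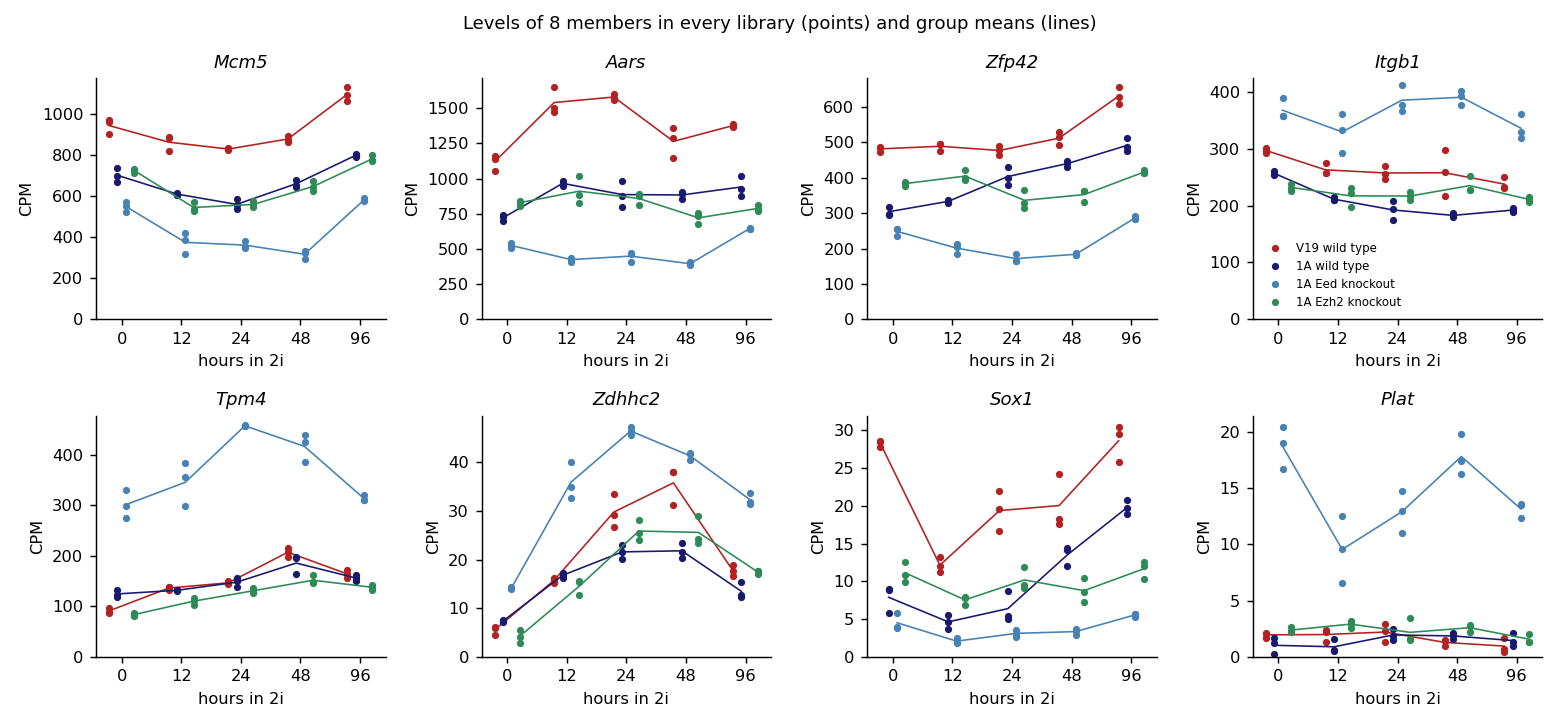
CPM (y axis, from 0) of 8 members against hours in 2i (x axis, not to scale) in each of 60 libraries (points, by line) with group means (lines). V19 is the highest line for Mcm5, Aars, Zfp42 and Sox1 at every time, while for Itgb1, Tpm4, Zdhhc2 and Plat the Eed knockout is.

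The next comparison does not set V19 against 1A. Each wild-type line was compared with itself, 2i against 0 h. Members changed in both directions in each line. In V19, 155 members rose and 156 fell at 12 h (background 21.5 and 20.8% of all tested genes), and 152 rose and 183 fell at 96 h (background 24.8 and 22.7%). In either direction these are 53.3 and 57.5% of the members (background 42.3 and 47.5%), beside 49.7 and 51.9% of the 10205 genes of at least 5 CPM elsewhere. In 1A wild type, 305 members changed at 12 h (52.3%, background 40.8%), and 164 rose and 155 fell at 96 h (background 25.1 and 23.5%). That is 54.7% of the members at 96 h (background 48.6%). Of the genes of at least 5 CPM elsewhere, 47.7% changed in 1A wild type at 12 h and 53.4% at 96 h. The median change of the members was 0.01 and -0.06 in V19 and 0.02 and 0.03 in 1A wild type, where that of the other tested genes was 0.05 and 0.01 in V19 and 0.02 and 0.02 in 1A wild type.

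Of the members called at 96 h, 264 were called in both lines, all 264 in the same direction, which is 78.8% of the V19 calls and 82.8% of the 1A calls. At 12 h it was 254, again all in 1 direction, 81.7% of the V19 calls and 83.3% of the 1A calls. Among the genes of at least 5 CPM elsewhere, 78.1% of the V19 calls and 75.8% of the 1A calls were shared at 96 h. At 12 h these shares were 79.7 and 83.1%. Of the genes elsewhere that were called in both lines, 4119 of 4132 went in the same direction at 96 h. At 12 h it was 4040 of 4042. Across the 583 members the changes of the lines correlated with a Pearson r of 0.945 at 12 h and 0.924 at 96 h, and across the 10205 other genes with 0.920 and 0.909. These are correlations across genes, which are not independent, and within a line the changes at both times share its 0 h libraries.

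The members with the largest changes in 2i included regulators of signalling and transcription. Dusp4, a phosphatase of MAP kinases that ERK signalling induces, had 43.3, 51.3 and 55.7 CPM in V19 at 0 h and 2.72, 4.22 and 2.94 CPM at 12 h. It fell by 3.92 (SE 0.18, adjusted p = 9e-25) in V19 and by 3.53 (SE 0.16, adjusted p = 2.9e-24) in 1A wild type on the log2 scale. Zfp423, a zinc finger factor, had 183, 142 and 186 CPM in V19 at 0 h and 6.28, 7.43 and 6.30 CPM at 12 h. It fell by 4.67 (SE 0.18) in V19 and by 3.92 (SE 0.18) in 1A wild type. Snai3, of the Snail family, fell by 4.98 at 96 h in V19 and by 4.57 in 1A wild type. Its 96 h levels were near the floor, 0, 0.76 and 0.69 CPM in V19 and 0.64, 0.57 and 0.73 CPM in 1A wild type. Over the alternatives its change ran from -5.35 to -4.55 in V19 and from -4.70 to -4.32 in 1A wild type. In V19 Sfrp1 rose from a range of 44.0 to 47.8 CPM at 0 h to 412 to 420 CPM at 96 h. In 1A wild type it rose from 23.2 to 28.1 CPM to a range of 249 to 262 CPM. These are log2 changes of 3.18 ± 0.09 (adjusted p = 2.6e-32) and 3.31 ± 0.10 (adjusted p = 2.2e-32; SE, edgeR). Lpl, lipoprotein lipase, rose by 3.32 and 3.29, and Il34, a cytokine, by 4.08 and 3.06, in V19 and 1A wild type.

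By list, membrane traffic and lysosome members rose more often than they fell at 96 h (12 against 3 of 27 in V19, 12 against 1 in 1A wild type). RNA processing and translation members fell more often than they rose (19 against 3 of 30 in V19, 16 against 3 in 1A wild type), as did chromatin members (13 against 6 of 31, and 10 against 7). Replication genes gave 6 up and 3 down of 32 in V19 and 10 up and 2 down in 1A wild type. Pluripotency and signalling gave 9 up and 5 down of 20 in V19 and 10 up and 7 down in 1A wild type. Mitochondrial and metabolic genes gave 7 up and 11 down of 28, and 7 up and 8 down. The remaining lists held 5 to 24 members with at most 10 calls in a direction. These counts stand beside 152 up and 183 down of all 583 in V19, and 164 up and 155 down in 1A wild type. Of all tested genes, 24.8% rose and 22.7% fell in V19 at 96 h, and 25.1 and 23.5% in 1A wild type. The lists were not tested against these shares.

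Whether the response itself differed between V19 and 1A wild type was tested as an interaction. An interaction is the difference of V19 from 1A wild type at a time minus that at 0 h, so it uses the libraries of the difference described above. A member whose level is raised by the same factor at every time has no interaction. At 12, 24, 48 and 96 h, 1, 5, 18 and 11 members passed, or 0.172, 0.858, 3.09 and 1.89% of them, beside a background of 0.119, 1.13, 2.25 and 1.68% of all tested genes. The members' median interaction was -0.01, -0.04, -0.05 and -0.06, and that of the other tested genes 0.01, 0.01, 0.01 and 0.00. Without replicate 2 of V19 at 48 h, 13 members passed at 24 h and 45 at 48 h. Without replicate 1 of 1A wild type at every time, 45 passed at 24 h, and leaving out any other single replicate of either line gave 0 to 4. At 48 h such counts were 9 (without replicate 3 of V19 or replicate 1 of 1A wild type) to 26, and at 96 h 3 (without replicate 3 of either line) to 8. At 12 h no member passed in edgeR's test without any single replicate. The number of calls thus rests on single libraries.

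Tpm4 (72889132 to 72906986), a tropomyosin of the actin cytoskeleton, was the only member with a call at each of the 4 times. It was at 89.4, 95.9 and 87.8 CPM in V19 and 132, 123 and 119 CPM in 1A wild type at 0 h, and at 157, 163 and 172 CPM against 157, 150 and 162 CPM at 96 h. The lines were apart at 0 h and overlapped at 96 h. The interaction was 0.50 ± 0.11 at 12 h (adjusted p = 0.023) and 0.53 ± 0.11 at 96 h (adjusted p = 0.0025; SE, edgeR), and over the alternatives the adjusted p ran from 0.0038 to 0.32 at 12 h and from 0.0002 to 0.06 at 96 h. Zdhhc2, a palmitoyltransferase, was at 4.54, 6.14 and 5.95 CPM in V19 and 7.09, 7.34 and 7.61 CPM in 1A wild type at 0 h. At 48 h it was at 31.2, 38.1 and 38.0 CPM in V19 and 23.4, 21.6 and 20.4 CPM in 1A wild type, so the order of the lines turned. Its interaction at 48 h was 1.11 ± 0.20 (adjusted p = 0.00048, SE, edgeR).

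Zfp42 went the opposite way. From 0 to 24 h its level was 474 to 487 and then 463 to 488 CPM in V19, so that the groups overlapped, and 295 to 319 and then 380 to 430 CPM in 1A wild type. The interaction was -0.42 ± 0.09 at 24 h (adjusted p = 0.0038, SE, edgeR), and over the alternatives the adjusted p was 1.9e-05 to 0.15. It lost its call with no filter on low counts and without replicate 2 or replicate 3 of 1A wild type. Sox1 had 28.6, 27.8 and 28.5 CPM at 0 h and 30.5, 25.8 and 29.6 CPM at 96 h in V19, and 9.01, 8.80 and 5.84 and then 19.7, 20.7 and 18.9 CPM in 1A wild type. Its interaction at 96 h was -1.27 ± 0.20, and that of Gpt2 was 0.57 ± 0.13 (SE), a call lost without replicate 1 of V19. Both genes were also named for their difference between V19 and the 1A lines, so these values are a description. Pou4f2, a POU factor of neurons, had an interaction of -1.44 at 48 h, which was -1.18 (adjusted p = 0.066, edgeR) without replicate 2 of V19 at 48 h, and over all alternatives the adjusted p was 0.011 to 0.17.

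Members differed in both directions between each knockout line and 1A wild type. In the Eed knockout 126 members were higher and 171 lower than in 1A wild type at 0 h (background 26.4 and 23.3%), and 142 higher and 188 lower at 96 h (background 30.9 and 24.4%). These are 21.6 and 29.3% of the members at 0 h and 24.4 and 32.2% at 96 h. Of the 10205 genes of at least 5 CPM elsewhere, 25.8% were higher and 28.0% lower at 0 h. At 96 h these shares were 27.8 and 29.3%. The members' median was -0.09 and -0.10, and that of the other genes 0.00 and 0.02. In the Ezh2 knockout 73 were higher and 61 lower at 0 h (11.9 and 10.9%) and 37 higher and 51 lower at 96 h (6.56 and 6.64%), with medians of 0.00 and -0.01. These are 12.5 and 10.5% of the members at 0 h and 6.35 and 8.75% at 96 h. The genes of at least 5 CPM elsewhere had 13.8 and 11.5% at 0 h and 8.34 and 7.53% at 96 h. With no filter on low counts the calls of the Ezh2 knockout at 96 h were 24 and 26, and without single replicates 22 to 29 and 33 to 44. They were lowest at 22 higher without replicate 3 of the knockout, and at 33 lower without its replicate 1 or 3 or replicate 2 of 1A wild type. With the authors' RUV values the lower calls of the Eed knockout were 34 at 0 h and 21 at 96 h. The same 1A wild-type libraries serve both knockout comparisons.

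Plat, at 1.18, 1.63 and 0.25 CPM in 1A wild type at 0 h, was at 16.7 to 20.4 CPM in the 3 libraries of the Eed knockout, and was higher by 4.04 ± 0.28 (adjusted p = 8.3e-18, SE, edgeR). In the Ezh2 knockout it was at 2.23, 2.29 and 2.62 CPM. Lpl was higher in the Eed knockout by 2.84 ± 0.19 at 0 h, B3gnt3 by 2.88 ± 0.20 and Zfpm1, a cofactor of GATA factors, by 2.63 ± 0.15 (adjusted p of 1.9e-18, 1.1e-17 and 2.8e-21). At 96 h the largest were Adcy7, an adenylyl cyclase (4.22 ± 0.31), Slc5a5 (3.72 ± 0.17) and Cdh3, P-cadherin (3.36 ± 0.17). Lower in the Eed knockout at 0 h were Xkr5 (-2.14 ± 0.18) and Sall1, a zinc finger factor of stem cells (-1.77 ± 0.13), and at 96 h Sox1 (-1.82 ± 0.16). With the authors' RUV values 4 of these lost their call: B3gnt3 (0.37, adjusted p = 0.30) and Xkr5 (-0.37, adjusted p = 0.28) at 0 h, and Adcy7 (0.91, adjusted p = 0.17) and Sox1 (0.0057, adjusted p = 0.99) at 96 h, from limma. Other Eed knockout calls picked by the naming rule were lost too: Zmat4 at 0 h, and Plat (0.12), Exoc3l, Zmat4 and Zfp882 at 96 h. Slc5a5 and Cdh3 kept theirs at 96 h, and Plat, Lpl, Zfpm1, Sall1 and Tbc1d9 at 0 h. Mcm5, Cdt1 and Aars differed by -0.35, -0.48 and -0.46 in the Eed knockout at 0 h, which is a description, since their difference of V19 from the 1A lines includes that knockout. By list, 17 of the 30 RNA processing and translation members and 12 of the 31 chromatin members were lower in the Eed knockout at 0 h, and 1 and 2 were higher. Of the 27 membrane traffic members 11 were higher and 2 lower, and of the 23 adhesion members 10 were higher and 4 lower. These stand beside 21.6% higher and 29.3% lower of all members, and 26.4 and 23.3% of all tested genes, and the lists were not tested against them. The sums of the fibroblast and endoderm markers were also higher in the Eed knockout (above), though Col1a1 of the fibroblast list was not. The part of these markers in the differences was not tested.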

How the data were processed

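Polyadenylated RNA of 60 libraries (4 lines, 5 times, 3 replicates) was measured by sequencing of single reads, pooled from 2 runs per the labels. The authors deposited a table of raw counts per gene; STAR 2.7.10b, featureCounts 2.0.3, MultiQC 1.14, DESeq2 and the build GRCm39 are named in the submitters' processing notes. A second deposited table holds a score for every gene, the counts after removal of unwanted variation (RUV) and rounding, which served as an alternative only, and transformed values that were not used here. All 60 columns matched a label (0 unmatched). Exon length and position are as deposited with the counts. Whether counting used strand is not given in the sources used here, so overlapping genes cannot be told apart.

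Counts were tested with edgeR 4.0.16 (R 4.3.3), quasi-likelihood, TMM factors, 20 groups in 1 model, and genes kept by filterByExpr (minimum count 10, minimum total 15), which left 15083 genes, all 583 members among them. P-values were adjusted by the Benjamini-Hochberg method over all 15083, at 0.05. Levels are CPM with TMM factors (log2 with a prior count of 2), while the rule's mean CPM and the marker levels use library totals. Depth was 2561169 to 11065948 counts per library. The comparisons were V19 against the 1A lines (description), each wild type against its 0 h, the knockouts against 1A wild type, and interactions. Log2 fold changes carry the SE from the model. The steps were tested on simulated data. Members and gene lists were chosen with earlier results of these data known. Named genes are the 3 most abundant members of each list, the 5 highest and 5 lowest differences, up to 4 called members per direction and comparison with the largest change (no overlap of replicates, except for interactions), and 3 genes each side of the CPM threshold; predicted genes were named only at the CPM threshold and in lists, and some genes that the rule names are not reported here. List extremes (Wrn, Rnaseh2a, Esrp2, Sin3b, Nacc1, Irs2), left-out genes and Ddx3y were named after their values were seen, and Mcm5, Cdt1 and Aars in knockouts likewise, as were the 3 promoters and their motifs. The labels call replicates biological and do not say more, so p-values measure the spread between them. No pair of replicates agreed within sampling noise (chi-square per degree of freedom 1.13 to 25.6 over 60 pairs). Alternatives were RLE size factors, TMM without chromosome 8, other filters, DESeq2 1.42.0, RUV values with limma 3.58.1 (pseudocount 1), a replicate block, fewer groups in the fit, and leaving out replicates. For the V19 difference, other comparators, member sets and a ratio of sums were tried as well.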

Additional observations from a re-analysis of the deposited data

Results flagged for a closer look

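The difference of response between V19 and 1A wild type passed the test (edgeR interaction, adjusted p under 0.05 over all genes) for 20 pairs of a named member and a time. At 12 h it was 0.50 for Tpm4 on the log2 scale. At 24 h it was 0.87 for Zdhhc2, 0.44 for Tpm4 and -0.42 for Zfp42. At 48 h the response was higher in V19 by 1.34 for Il34, 1.24 for the potassium channel gene Kcnk1, 1.11 for Zdhhc2 and 1.08 for Cpe (carboxypeptidase E), and lower for Zmat4 (-1.57), Pou4f2 (-1.44), Sox1 (-1.25) and the kinesin Kifc3 (-1.13). At 96 h it was 1.19 for Kcnk1, 0.81 for Zdhhc2, 0.57 for Gpt2 and 0.53 for Tpm4, and -1.27 for Sox1, -1.08 for Pou4f2, -0.67 for Rhou and -0.59 for Pgpep1. Of these, Sox1, Kifc3, Kcnk1 and Zdhhc2 at 48 h and Sox1 at 96 h kept their call under all 15 alternatives tried. Others did not: at 48 h Pou4f2 kept it under 7, Il34 under 9 and Zmat4 under 10, at 96 h Zdhhc2 under 7 and Pou4f2 and Rhou under 9, and Tpm4 under 6 at 12 h and 8 at 24 h. The remaining 7 kept it under 11 to 14. Sox1, Gpt2 and Zmat4 were also named for their difference between V19 and the 1A lines. Groups of 3 libraries allow no test for a library that lies apart.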

How the results depend on the processing

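The members' median minus that of genes off chromosome 8 stayed positive under every alternative tried; changes of over 1 SD of the V19 libraries (pooled, 0.019) follow for 0, 12, 24, 48 and 96 h. With no filter on low counts it was 0.41, 0.43, 0.42, 0.39 and 0.37; with the RUV values 0.33, 0.34, 0.33, 0.31 and 0.30; and against 1A wild type alone 0.43, 0.41, 0.39, 0.36 and 0.36. With members of at least 20 CPM it was 0.48, 0.48, 0.48 and 0.47 up to 48 h, and as a ratio of summed CPM 0.48 at 12 h and 0.46 at 48 h. Leaving out 1 replicate of a line gave 0.44 to 0.46, 0.45 to 0.46, 0.44 to 0.46, 0.42 to 0.47 and 0.42 to 0.43. Members called higher in V19 were then 352 to 405, 375 to 410, 342 to 395, 323 to 369 and 349 to 395, and called lower 15 to 21, 13 to 22, 16 to 29, 25 to 39 and 24 to 32; called lower with RUV values were 9, 0, 1, 9 and 8, and against 1A wild type alone 7, 5, 10, 5 and 2.

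For the Eed knockout, 34 members were called lower at 0 h and 21 at 96 h with RUV values; without single replicates the calls were 118 to 131 higher and 135 to 159 lower at 0 h, and 123 to 136 and 163 to 193 at 96 h. For the Ezh2 knockout at 96 h, calls higher were 24 with no filter and 20 with RUV values, and calls lower 26 with no filter; without single replicates they were 22 to 29 and 33 to 44, and at 0 h 55 to 63 and 46 to 53. Responses without single replicates gave 119 to 143 and 114 to 150 (V19, 12 h), 121 to 137 and 138 to 155 (V19, 96 h), 107 to 122 and 109 to 134 (1A, 12 h), and 136 to 148 and 123 to 132 (1A, 96 h). Interactions at 12 h numbered 0 with no filter, with RUV values, with only these groups and without any single replicate (0 to 0); at 24 h 21 with no filter, 12 with DESeq2 and 0 to 45 without single replicates; at 48 h 9 to 26; and at 96 h 7 with no filter and 3 to 8. Without replicate 2 of V19 at 48 h, chosen after seeing the data, 13 passed at 24 h and 45 at 48 h, and 23 and 30 members were called lower in V19 at 12 and 24 h. With RUV values, 4 Eed knockout differences changed sign: Zmat4 (0.69 at 0 h, 0.64 at 96 h), Sox1 (0.0057 at 96 h) and Exoc3l (0.20 at 96 h). The cause was not tested.

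Same-numbered libraries of V19 and 1A wild type did not deviate together (12 correlations of -0.02 to 0.08), so the numbers were not taken as pairs. With the replicate number as a block, 152 members rose and 156 fell in V19 at 12 h, and 9 interactions passed at 96 h in place of 11; no count moved by over 1.5 times.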
